A study of Mus musculus with 16 samples.

Results

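The Cyp4a genes encode cytochrome P450 enzymes of the endoplasmic reticulum that hydroxylate fatty acids at the terminal (omega) carbon, the entry step of omega-oxidation. The products are oxidized further to dicarboxylic acids, which peroxisomes shorten. In mouse liver several Cyp4a genes are classic targets of the fatty acid receptor PPARα, while Cyp4a12a and Cyp4a12b are known as male-biased genes whose level depends on androgen and growth hormone. The genes were taken by name from the counts table, which held Cyp4a10, Cyp4a14, Cyp4a31, Cyp4a32, Cyp4a12a and Cyp4a12b, 6 of 41079 genes, and all 6 were among the 16742 genes that passed the filter on low counts.

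Liver RNA was sequenced from 16 mice aged 20 to 22 months on a C57BL/6J background. Every mouse carried a floxed Gcgr, the gene of the glucagon receptor. LKO mice also carried Cre driven by the albumin promoter, which acts in hepatocytes from early life, so the deletion was lifelong and specific to the liver. CRE- mice were floxed without Cre and served as controls. Each group (male CRE-, male LKO, female CRE-, female LKO) had 4 libraries, numbered by biological replicate. Between 33268424 and 56488920 reads per library were counted on genes. The comparison of LKO with CRE- mice of the same sex asks how loss of the hepatic glucagon receptor alters the liver of old males and of old females. Levels are given as CPM, read counts scaled to the total of the library after TMM, which corrects each total by a trimmed mean over genes. Fold changes are on the log2 scale with their standard error (SE). A gene was called changed when the quasi-likelihood test of edgeR, adjusted by Benjamini-Hochberg over the 16742 genes tested, gave an adjusted p under 0.05 (the edgeR adjusted p below). By this rule 0.454% of all genes tested were called in males, 4.24% in females and 0.92% between controls. These shares stand beside the calls of every list below. An unadjusted p under 0.05 was found for 9.53% of all genes tested in males, 21.4% in females and 15.96% for the sex difference.

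The tissue carried its own markers. Alb was the most abundant of 11 hepatocyte markers in each of the 16 libraries, at 41687 CPM or more, and only 1 of 8 kidney markers passed the filter. In these bulk samples, fewer cells of a type and less RNA per cell cannot be told apart.

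The targeted gene, Gcgr, was at 190.4, 193, 127 and 189.6 CPM in male CRE- replicates 1 to 4 and at 117, 136, 129.9 and 160.4 CPM in male LKO replicates 1 to 4. It was at 162, 208, 201 and 180.0 CPM in the female CRE- libraries and at 48.8, 132, 119 and 93.6 CPM in the female LKO libraries. The male groups overlapped, since the third male control was as low as the LKO mice, whereas the female LKO mice all lay below the female controls. The log2 fold change was -0.37 (SE 0.25) in males, with an edgeR adjusted p of 0.671, and -0.93 (SE 0.25) in females, with an edgeR adjusted p of 0.0443. With single female libraries left out, the call held in 1 of 8 fits, the one without female LKO replicate 2 (-1.11), and in the others the value was -1.04 to -0.69 with an adjusted p up to 0.136. It was also lost with the 2 groups fitted alone, upper-quartile scaling, no filter on low counts or at least 10 counts in every library (adjusted p 0.132, 0.0707, 0.0545 and 0.0506). The counts cover the whole gene, including exons outside the floxed part, so this level does not measure the deleted exons.

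Several libraries stood apart from their group. Between libraries of 1 group, chi-square per degree of freedom over the genes tested was 341 to 442 for pairs with male CRE- replicate 3 (93.9 to 127 among the other male controls), 204 to 235 for pairs with male LKO replicate 1 (36.3 to 91.2 among the others), 229 to 280 for pairs with female CRE- replicate 4 (50.6 to 186 among the others) and 417 to 535 for pairs with female LKO replicate 1 (114 to 353 among the others). Male LKO replicate 1 differed in sex-biased genes. In this library, 13 of 18 male-biased liver genes were below all other male libraries and 17 of 22 female-biased genes were above all of them, against 12.5% and 13.4% of all genes tested. Among the hepatocyte markers 6 of 11 were below all other males, and 5 of 13 macrophage markers were above. The library was male by its Y-linked transcript Ddx3y (58.0 CPM) and by Xist (0.0515 CPM). Results for Cyp4a12a, Cyp4a12b and the sex-biased lists in males are therefore given with and without it.

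The 6 genes lay in one cluster on chromosome 4 (GRCm39), between 115156243 and 115479704. Cyp4a12a (115156243 to 115190012) and Cyp4a12b (115268821 to 115296231) formed one end, Cyp4a14 (115343397 to 115353355) followed on the opposite strand, and Cyp4a10 (115375484 to 115390846), Cyp4a31 (115420824 to 115436212) and Cyp4a32 (115458124 to 115479704) formed the other end. Of the 4 other genes listed within the cluster, Cyp4a30b and Gm52675 had 0 reads in all 16 libraries and Cyp4b1-ps2 had 90 reads in all. The last, Gm52676, overlaps Cyp4a14 on the other strand and had at most 60 reads in a library, so few reads lay on the strand opposite Cyp4a14, which was counted by strand.

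Compared per kilobase of exon, Cyp4a14 and Cyp4a10 were the most abundant members in every group. In male CRE- livers Cyp4a14 was at 134 ± 112 CPM per kb (SD, n = 4) and Cyp4a10 at 118 ± 93.8 (SD, n = 4), which did not differ beyond their spread. Cyp4a12a followed at 46.7 ± 10.5 CPM per kb, then Cyp4a32 at 11.3 ± 1.39, Cyp4a12b at 7.58 ± 2.92 and Cyp4a31 at 0.920 ± 0.429 (SD, n = 4). In female CRE- livers Cyp4a10 (288 ± 140 CPM per kb) and Cyp4a14 (277 ± 147) were within each other's spread, Cyp4a14 being the higher in replicate 3, and Cyp4a32 (7.48 ± 2.68) and Cyp4a31 (2.52 ± 0.511) followed (SD, n = 4), with Cyp4a12a and Cyp4a12b close to 0. Together the 6 genes took 0.0813% of all counts in male CRE-, 0.205% in male LKO, 0.137% in female CRE- and 0.199% in female LKO livers, as group means.

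**Figure D1:**
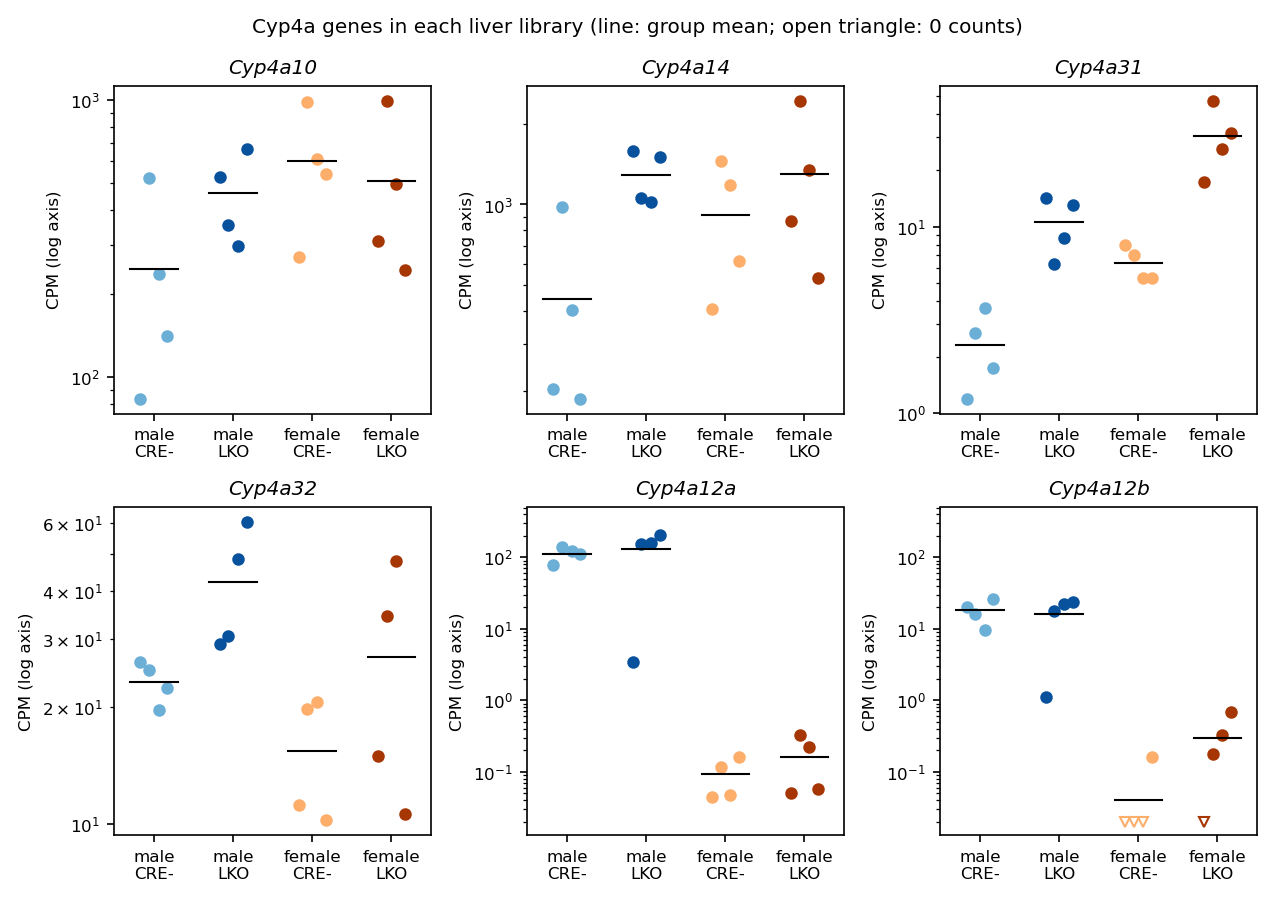
Level of each Cyp4a gene in every library, in CPM on a log axis, for male CRE-, male LKO, female CRE- and female LKO livers. Points are libraries, lines are group means over 4 libraries, and open triangles mark libraries with 0 counts; Cyp4a31 is higher in LKO than in CRE- libraries in both sexes without overlap, and Cyp4a12a and Cyp4a12b are near 0 in females.

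Cyp4a31, the least abundant member in males, was the one Cyp4a gene that changed in LKO livers of both sexes. It was at 1.20, 2.696, 3.67 and 1.75 CPM in the male CRE- libraries and at 14.3, 6.33, 8.67 and 13.02 CPM in the male LKO libraries. In females it was at 7.92, 7.01, 5.32 and 5.32 CPM in the CRE- libraries and at 17.4, 47.1, 25.9 and 31.6 CPM in the LKO libraries. Every LKO mouse was above every control of its sex. In raw reads, the male controls had 59 to 141 reads and the male LKO mice 304 to 555, and the female groups had 199 to 360 and 690 to 1890 reads.

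Cyp4a31 rose 4.55-fold in males (log2 fold change 2.19, SE 0.37, 95% confidence interval 1.41 to 2.96). The edgeR adjusted p was 0.0114 in males, where 1 of 6 Cyp4a genes and 0.454% of all genes tested were called. It rose 4.77-fold in females (log2 fold change 2.25, SE 0.36, 95% confidence interval 1.49 to 3.02), with an edgeR adjusted p of 0.00646, and it was the 1 gene called of the 4 Cyp4a genes other than Cyp4a12a and Cyp4a12b, which had few reads in females, against 4.24% of all genes tested. In the mean over both sexes the log2 fold change was 2.22 (SE 0.26, edgeR adjusted p = 0.000182), and 1 of 6 Cyp4a genes and 2.86% of all genes tested were called. By p it ranked 25 of 16742 genes in males and 26 in females. The male call was lost only without male CRE- replicate 1 (log2 fold change 1.96, edgeR adjusted p = 0.0542), while the female call held in each of 8 fits that left out a female library, with an adjusted p of at most 0.0308.

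The difference between the sexes in the Cyp4a31 effect, female minus male, was 0.07 on the log2 scale (95% confidence interval -0.98 to 1.12), with an edgeR adjusted p of 0.962. Its sign turned without male CRE- replicates 2 or 3, male LKO replicates 2 or 3, female CRE- replicate 3 or female LKO replicate 2, over a range of -0.22 to 0.30, and with limma-voom (-0.13). For this test of the sex difference 0 of 6 Cyp4a genes and 0.0% of all genes tested were called by edgeR. At an unadjusted p under 0.05 the test gave 0 of the 6 genes and 2672 of all genes, while DESeq2 called 371 genes and limma-voom 29, with 0 of the 6 among them. Among controls, each female library was above each male library for Cyp4a31. That difference was 1.46 on the log2 scale (95% confidence interval 0.70 to 2.22) and did not pass edgeR's threshold (adjusted p = 0.0723), though it passed with DESeq2 (1.45, adjusted p = 0.00633).

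Groups were also compared by whether their libraries overlap. In males Cyp4a14, Cyp4a31 and Cyp4a32, 3 of 6 Cyp4a genes, had every LKO library above every control, as did 3.57% of all genes tested, and 0 of 6 had every LKO library below, against 2.92% of all genes. In females Cyp4a12a and Cyp4a12b are left out of this comparison, since their controls had few or 0 reads and could hardly be undercut. Of the other 4 genes 1, Cyp4a31, had every LKO library above every control, against 5.2% of all genes, and 0 had every LKO library below, against 6.42%.

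Cyp4a14, a strongly PPARα-responsive omega-hydroxylase, was at 204, 982, 405 and 188 CPM in the male CRE- libraries and at 1583, 1061, 1024 and 1506 CPM in the male LKO libraries. It was at 408, 1459.7, 1179 and 616 CPM in female CRE- and at 870.1, 2439.9, 1345 and 532 CPM in female LKO libraries. The male LKO mice were all above the controls, of which the second was the highest, and the female groups overlapped. The log2 fold change was 1.54 in males (SE 0.55, 95% confidence interval 0.39 to 2.7, edgeR adjusted p = 0.333), and 2.29 without male CRE- replicate 2 (edgeR adjusted p = 0.105). In females it was 0.50 (95% confidence interval -0.63 to 1.63, edgeR adjusted p = 0.642), so neither sex passed the threshold. Without female LKO replicate 2, the highest of its group, the female difference was -0.000733 on the log2 scale. In the mean over both sexes it was 1.02 (edgeR adjusted p = 0.180), and limma-voom with sample weights gave 1.21 with an adjusted p of 0.0499. With a block for replicate number the mean also passed (1.23, adjusted p = 0.0357). The sexes were not shown to differ (-1.04, edgeR adjusted p = 0.489).

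Cyp4a10, also a PPARα-responsive hydroxylase and the closest relative of Cyp4a31 and Cyp4a32, was at 83.8, 524, 235 and 141 CPM in the male CRE- libraries and at 525, 354, 298 and 668 CPM in the male LKO libraries. In females it was at 272, 979.9, 612 and 542 CPM in the CRE- libraries and at 309.6, 992, 496 and 244 CPM in the LKO libraries. Both sexes overlapped, and the second control was the highest control in each sex. The difference did not pass edgeR's test in males (0.91 on the log2 scale, 95% confidence interval -0.23 to 2.04, adjusted p = 0.628), and with single male libraries left out it ranged from 0.62 (male CRE- replicate 1 left out) to 1.59 (male CRE- replicate 2 left out). It did not pass in females either (-0.24, 95% confidence interval -1.36 to 0.89, edgeR adjusted p = 0.850), where the sign turned without female CRE- replicate 2 (0.10) or without female LKO replicate 4 (0.00233). Female controls were higher than male controls by 1.29 on the log2 scale, with overlap and an edgeR adjusted p of 0.335 (1.98 without male CRE- replicate 2).

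Cyp4a32, a near copy of Cyp4a10, was at 26.2, 24.9, 19.7 and 22.5 CPM in the male CRE- libraries and at 29.2, 30.6, 48.3 and 60.2 CPM in the male LKO libraries. It was at 11.2, 19.8, 20.6 and 10.2 CPM in female CRE- and at 14.95, 34.4, 47.8 and 10.6 CPM in female LKO libraries. Male LKO mice were all above the controls by a narrow gap, and female LKO mice spread from the lowest controls to well above the highest. The log2 fold change was 0.85 in males (95% confidence interval 0.02 to 1.68, edgeR adjusted p = 0.505) and 0.80 in females (95% confidence interval -0.03 to 1.63, edgeR adjusted p = 0.249). With single libraries left out, the female value was 0.37 (without female LKO replicate 3) to 1.08 (without female LKO replicate 4) and the male value 0.62 to 0.98. The mean over both sexes, 0.83 (edgeR adjusted p = 0.133), passed only without female LKO replicate 4 (0.96, edgeR adjusted p = 0.0479), a fit in which 2 of 6 Cyp4a genes and 2.76% of all genes tested were called.

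**Figure D2:**
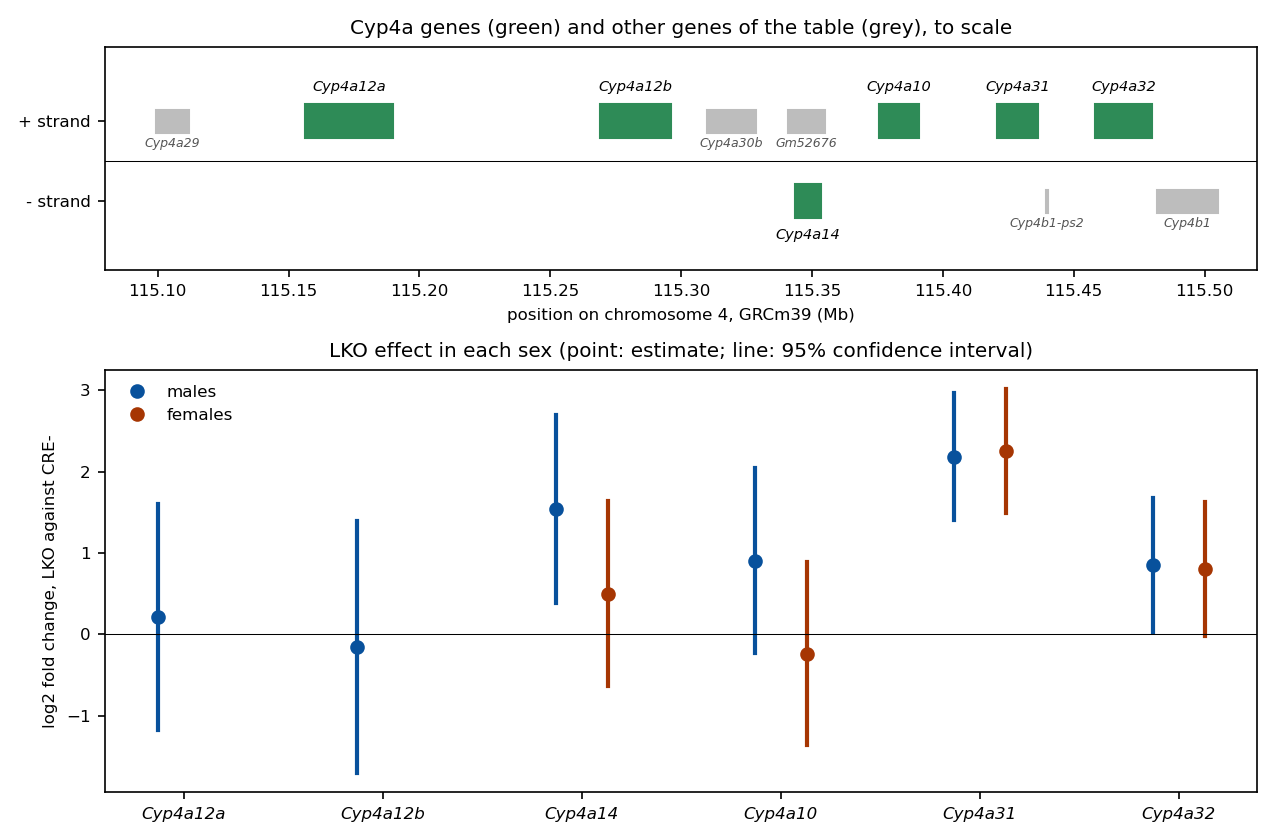
Top, the Cyp4a genes (green) and other listed genes (grey) by strand along chromosome 4 of GRCm39, in Mb, to scale; bottom, log2 fold change of LKO against CRE- in males and females for each gene in the same order, with 95% confidence intervals. The interval of Cyp4a31 lies above 1 in both sexes, and females are left out for Cyp4a12a and Cyp4a12b, whose reads were too few for a fold.

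Cyp4a12a and Cyp4a12b, the male-biased members, passed the filter only through the males. Cyp4a12a was at 78.1, 138, 124 and 113 CPM in the male CRE- libraries and at 3.47, 154, 161 and 206 CPM in the male LKO libraries. Cyp4a12b was at 20.5, 16.3, 9.65 and 26.2 CPM in male CRE- and at 1.11, 17.6, 22.5 and 24.1 CPM in male LKO libraries. Male LKO replicate 1 was the lowest male for both genes. With it included, the log2 fold change of Cyp4a12a in males was 0.21 (95% confidence interval -1.17 to 1.60, edgeR adjusted p = 0.941). Without it the value was 0.61 (edgeR adjusted p = 0.658), and the 3 remaining LKO mice were above every control. For Cyp4a12b the log2 fold change was -0.16 (edgeR adjusted p = 0.964), and 0.22 without that library (edgeR adjusted p = 0.935). Neither gene passed the threshold in males with or without it. The direction also turned for Cyp4a12a without male LKO replicate 4 (-0.10) and for Cyp4a12b without male CRE- replicate 4 (0.08).

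In females both genes were near the limit of detection. Cyp4a12a had 2, 6, 2 and 6 reads in the CRE- libraries and 2, 13, 12 and 2 reads in the LKO libraries. Cyp4a12b had 0, 0, 0 and 6 reads in the CRE- libraries and 0, 7, 18 and 24 reads in the LKO libraries. A floor of 3 reads per library covers many of these values, so no fold is given. The edgeR adjusted p for LKO against CRE- in females was 0.738 for Cyp4a12a and 0.199 for Cyp4a12b (unadjusted p = 0.484 and 0.0372). With the female groups fitted alone neither gene passed the filter on low counts, so nothing is read from these values.

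The sex difference of these genes among controls was large. Cyp4a12a had 3851 to 6188 reads per male control and 16 reads over all 4 female controls, and Cyp4a12b had 371 to 1167 reads per male control and 6 reads over all female controls. Every female control was below every male control. The fitted log2 difference, female against male, was -10.23 for Cyp4a12a (SE 1.06, edgeR adjusted p = 4.47e-05) and -8.90 for Cyp4a12b (SE 1.20, edgeR adjusted p = 0.000667), values that rest on those few female reads. All 6 female reads of Cyp4a12b came from female CRE- replicate 4, which was 113-fold lower than the male mean. The other 3 female controls had 0 reads and were at least 252.8-fold lower, taken against a floor of 3 reads per library. Reads were paired, and this bound is lower if both reads of a pair were counted. Both genes were tested only because they are high in males, so nothing is read from their count in this comparison, 2 of 6 Cyp4a genes called beside 0.92% of all genes tested. With limma-voom the call of Cyp4a12a was lost (-10.17, adjusted p = 0.0583).

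The near-identical copies limit how far single genes can be separated. The coding sequences of Cyp4a10, Cyp4a31 and Cyp4a32 were 96.0% to 97.2% identical, those of Cyp4a12a and Cyp4a12b 98.5%, and all other pairs 75.9% to 80.5%. Reads that map equally well to several places are not counted by the counting program unless it is told to, so a read from a shared stretch could be lost to both copies. The other read of its pair may still place it, which was not tested. Of the 150-base windows of the coding sequence, the length of a read, 93.8% occurred in no other member for Cyp4a10, 92.8% for Cyp4a31, 92.0% for Cyp4a32 and 100% for Cyp4a14. For Cyp4a12a and Cyp4a12b the share was 70.3% and 68.1%, and 439 windows were common to both. The values of Cyp4a10, Cyp4a31, Cyp4a32, Cyp4a12a and Cyp4a12b are therefore uncertain to the extent that reads were lost or placed on a copy. Summed as one gene, Cyp4a10, Cyp4a31 and Cyp4a32 differed by 0.92 on the log2 scale in males (SE 0.50, edgeR adjusted p = 0.586) and by -0.13 in females (edgeR adjusted p = 0.913), since Cyp4a10 held most of their reads. The sum of Cyp4a12a and Cyp4a12b differed by 0.17 in males (edgeR adjusted p = 0.957).

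Stretches of 60 bases within 1 exon are shown to let the copies be compared base by base, and capitals mark every position at which the copies shown together are not all the same. Each stretch was taken where its least different pair differs at the most positions. The first set is from coding exon 2, read on the + strand of GRCm39 at chr4:115376851-115376910 for Cyp4a10, chr4:115422231-115422290 for Cyp4a31 and chr4:115459481-115459540 for Cyp4a32. Of its 9 marked positions, 3 differ between Cyp4a10 and Cyp4a31, 9 between Cyp4a10 and Cyp4a32 and 7 between Cyp4a31 and Cyp4a32. Few bases thus separate Cyp4a10 from Cyp4a31 in this stretch, which was not chosen for that pair alone. The second set is from coding exon 6, where 4 positions differ, on the + strand at chr4:115183825-115183884 for Cyp4a12a and chr4:115290078-115290137 for Cyp4a12b.
Cyp4a10: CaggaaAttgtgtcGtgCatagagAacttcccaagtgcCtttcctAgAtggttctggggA
Cyp4a31: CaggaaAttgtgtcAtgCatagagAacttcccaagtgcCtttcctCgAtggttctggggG
Cyp4a32: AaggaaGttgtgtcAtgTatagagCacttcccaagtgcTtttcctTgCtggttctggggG
Cyp4a12a: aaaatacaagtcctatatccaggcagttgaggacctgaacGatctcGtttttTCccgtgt
Cyp4a12b: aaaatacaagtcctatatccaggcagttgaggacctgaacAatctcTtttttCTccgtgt

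Ratios within a library do not depend on its scaling, and set each gene against its near copy or neighbour. Cyp4a31 had 1.43, 0.514, 1.56 and 1.24 reads per 100 Cyp4a10 reads in the male CRE- libraries and 2.72, 1.79, 2.91 and 1.95 in the male LKO libraries. In females the ratio was 2.91, 0.715, 0.868 and 0.982 in the CRE- libraries and 5.61, 4.75, 5.22 and 12.98 in the LKO libraries. Every LKO library was above every control of its sex, with 1 female control, the first, well above the other controls. Cyp4a14 had 2.44, 1.87, 1.72 and 1.33 reads per Cyp4a10 read in male CRE- and 3.01, 3.0, 3.43 and 2.26 in male LKO libraries, which overlapped. In females this ratio was 1.5, 1.49, 1.93 and 1.14 in CRE- and 2.81, 2.46, 2.71 and 2.18 in LKO libraries, with no overlap. The ratios were not tested.

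**Figure D3:**
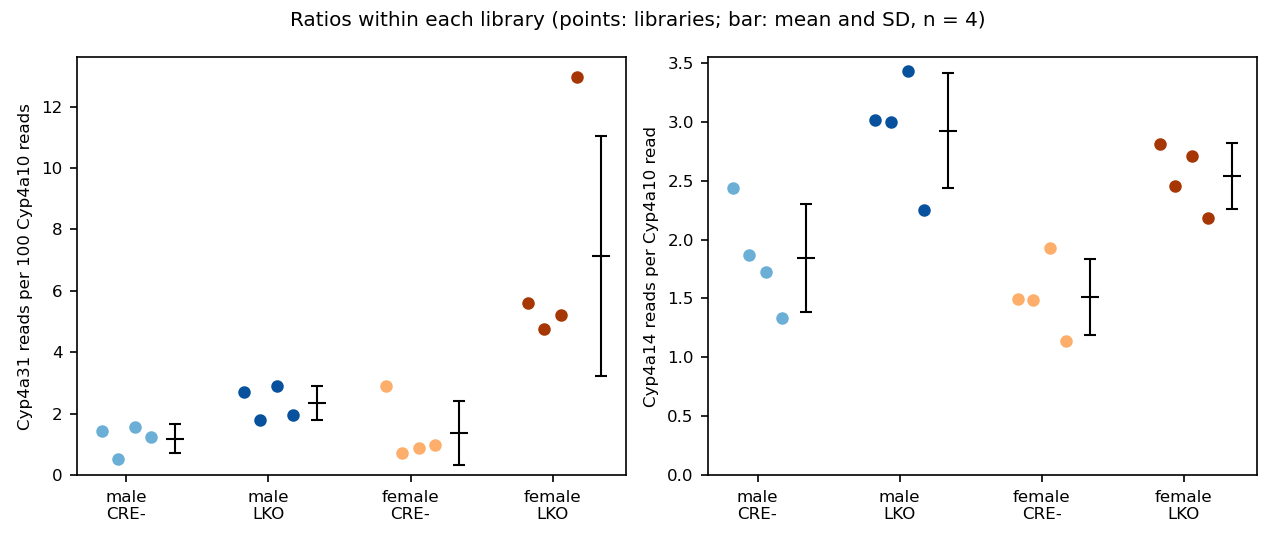
Reads of Cyp4a31 per 100 reads of Cyp4a10 (left) and reads of Cyp4a14 per read of Cyp4a10 (right) in every library of the 4 groups, with the mean and SD of each group (n = 4). Both ratios are higher in LKO than in CRE- livers as group means, and only the Cyp4a14 ratio in males overlaps between genotypes.

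Within groups, some members varied together more closely than others. Over the 16 libraries, the log2 CPM of each gene was taken as a deviation from its group mean, and Pearson's r is given as a description, since the libraries share their scaling and their group means. Cyp4a10 and Cyp4a14 varied together most closely (r = 0.946), whereas Cyp4a10 and Cyp4a31 gave 0.583, Cyp4a14 and Cyp4a32 gave 0.556, and Cyp4a31 and Cyp4a32 gave 0.0974. Cyp4a12a and Cyp4a12b gave 0.733, and 0.304 without male LKO replicate 1. Leaving out that library moved other pairs up, Cyp4a10 with Cyp4a12a from 0.194 to 0.734, Cyp4a14 with Cyp4a12a from 0.126 to 0.617 and Cyp4a31 with Cyp4a12a from -0.0948 to 0.497. Values for Cyp4a12a and Cyp4a12b over 16 libraries include 8 female libraries with at most 24 reads of either gene.

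The genes whose within-group deviations were most like those of Cyp4a10, after Cyp4a14, were Pgrmc1 (r = 0.917), Agmo (0.903), Ebag9 (0.884) and Ehhadh (0.875). Pgrmc1 (0.966), Agmo (0.915), Ehhadh (0.914) and Ube2g1 (0.906) were, with Cyp4a10, the most like Cyp4a14. Ehhadh encodes a peroxisomal enzyme of fatty acid oxidation. For Cyp4a31 the 5 nearest genes were 2610307P16Rik (0.862), Gja1 (0.819), Slc17a1 (0.807), Tlcd3a (0.802) and Sybu (0.784). Cyp4a32 was nearest to 4930413G21Rik (0.939), Adck5 (0.919), Gm40826 (0.908), Rad51b (0.904) and the fatty acid transporter and acyl-CoA synthetase Slc27a2 (0.897). Cyp4a12a was nearest to Gm49668 (0.943), Slc15a5 (0.940), Cidea (0.936), Mup15 (0.933) and Mbl1 (0.932), and these values were 0.615, 0.823, 0.693, 0.675 and 0.555 without male LKO replicate 1. Over the 8 male libraries alone, male LKO replicate 1 among them, they were 0.989, 0.956, 0.965, 0.962 and 0.990. The 5 genes nearest to Cyp4a12b were Cldn3 (0.891), Ranbp3 (0.890), Adh6-ps1 (0.889), Tmem177 (0.882) and Ppib (0.881), with 0.837, 0.882, 0.944, 0.880 and 0.825 over the 8 male libraries. The ranks for both genes were drawn over all 16 libraries, of which the female ones hardly carry either gene.

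PPARα acts with partner receptors and coregulators. Of 15 genes for PPARα, related receptors and coregulators, 0 were called in either sex by edgeR, with 2 in males and 0 in females at an unadjusted p under 0.05. Their median log2 fold change was -0.03 in males and 0.06 in females, beside -0.01 and 0.04 over all genes tested. Ppara itself was at 373 ± 129.9 CPM in male CRE- and 221 ± 45.9 CPM in male LKO livers (SD, n = 4). It was at 201 ± 56.5 CPM in female CRE- and 167 ± 75.6 CPM in female LKO livers (SD, n = 4). The log2 fold change of Ppara was -0.76 in males (edgeR adjusted p = 0.463) and -0.27 in females (edgeR adjusted p = 0.691).

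Of 48 genes known as PPARα targets in liver, without the Cyp4a genes, 46 were tested. In males 1 was higher, the hepatokine Fgf21 (5.21 on the log2 scale, edgeR adjusted p = 0.0114), and 0 were lower. In females Fgf21 was higher (4.04, edgeR adjusted p = 0.0194), although its groups overlapped and the value was 2.57 without female LKO replicate 3, and Fabp2, a fatty acid binding protein, was lower (-1.48, SE 0.36, edgeR adjusted p = 0.0326). Fabp2 was no longer called in 5 of 8 fits that left out a female library, those without female CRE- replicates 2, 3 or 4 or female LKO replicates 1 or 4 (-1.76 to -1.19 over all 8). Fgf21 lost its call in males without male CRE- replicates 1, 2 or 3 and with limma-voom, and in females without female CRE- replicates 2, 3 or 4, with adjusted p up to 0.0700 and 0.0749. Most other targets leaned up in males and down in females without passing the test, 38 of 46 being positive in males and 11 of 46 in females. The median was 0.30 in males and -0.36 in females, beside -0.01 and 0.04 over all genes tested. With single libraries left out it was 0.16 (male LKO replicate 4) to 0.55 (male CRE- replicate 2) in males and -0.56 (female LKO replicate 2) to -0.17 (female LKO replicate 1) in females. For the sex difference, female minus male, 43 of 46 were negative with a median of -0.65, and 0 were called by edgeR, with 7 at an unadjusted p under 0.05.

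Within groups, the deviations of Cyp4a10, Cyp4a14 and Cyp4a32 were positively correlated with all 46 PPARα targets. The median r over these targets was 0.671 for Cyp4a10, 0.671 for Cyp4a14 and 0.672 for Cyp4a32, beside 0.0229, 0.0365 and 0.0297 over all genes tested. For Cyp4a31 the median r was 0.167, with 41 of 46 positive, beside 0.00955 over all genes. Cyp4a12a gave 0.387 with 43 of 46 positive and Cyp4a12b 0.193 with 32 of 46 positive (0.625 and 0.132 without male LKO replicate 1), over libraries of which the 8 female ones had few reads of either gene. These values describe the same 16 libraries and were not tested.

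Genes that act with or after Cyp4a in omega-oxidation, from electron donors to alcohol and aldehyde dehydrogenases and peroxisomal chain shortening, made a list of 30, all tested, which shares members such as Ehhadh with the PPARα targets. In males 0 were called by edgeR, with 3 at an unadjusted p under 0.05 (9.53% of all genes) and a median of 0.04. In females 3 of 30 fell and 0 rose by edgeR, where 4.24% of all genes tested were called. At an unadjusted p under 0.05 there were 6 of 30, against 21.4% of all genes. The median was -0.42, beside 0.04 over all genes tested, and 27 of 30 were negative. The acyl-CoA synthetase Acsl5 fell from 752 to 327 CPM in females as group means (-1.20, SE 0.20, edgeR adjusted p = 0.00646), and this held in each of 8 fits without 1 female library. The electron carriers Cyb5b (-0.89, edgeR adjusted p = 0.0340) and Cyb5r3 (-0.94, edgeR adjusted p = 0.0493) fell as well. The call of Cyb5b was lost in 6 of 8 such fits, all but those without female CRE- replicate 1 or female LKO replicate 2, and that of Cyb5r3 in all 8. Their log2 values over these fits were -0.98 to -0.80 and -1.06 to -0.74.

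The other Cyp4 genes, which also include fatty acid and eicosanoid hydroxylases, made a list of 14, of which 9 were tested. Cyp4a29, which lies beside the cluster, and Cyp4a30b, within it, were at 0 in all 16 libraries, which allows at most 3 reads in each. In males 0 of 9 were called by edgeR and 0 had an unadjusted p under 0.05, with a median of -0.17. In females 1 of 9 was called, Cyp4f14, which fell from 260.0 ± 11.8 to 105 ± 12.6 CPM (SD, n = 4; -1.30 on the log2 scale, SE 0.31, edgeR adjusted p = 0.0326), and the median was -0.24. In females 4 of 9 had an unadjusted p under 0.05, against 21.4% of all genes, among them Cyp4f16 (0.88) and Cyp4f18 (1.17), which were higher without being called and are named after their values were seen. The call of Cyp4f14 held in 1 of 8 fits without a female library, the one without female LKO replicate 2, and its log2 value was between -1.37 and -1.22 in all 8. Cyp4v3, highest by CPM in every library but female CRE- replicate 1, was at 303 ± 73.3 CPM in female CRE- and 183 ± 47.1 CPM in female LKO livers (SD, n = 4; edgeR adjusted p = 0.0931). Just past the cluster, Cyp4b1 (0.29 in males and -0.31 in females, edgeR adjusted p = 0.766 and 0.549) and Efcab14 (-0.39 and -0.13, edgeR adjusted p = 0.666 and 0.830) were not called in either sex.

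The sex-biased liver genes and the hormone receptors give the setting of Cyp4a12a and Cyp4a12b. Of 18 male-biased genes 0 were called in males by edgeR, with 6 at an unadjusted p under 0.05 and a median of 0.63. These values include male LKO replicate 1; without it Cyp7b1, Hsd3b5 and Mup11 were called as higher, 8 had an unadjusted p under 0.05, 14 of 18 were positive and the median was 0.56. Without male LKO replicate 3, C9 was called as lower. In females 10 of 18 were positive, with a median of 0.41 (0.07 without female LKO replicate 2), while Mup17 (-6.45) and Nudt7 (-1.69) were lower (edgeR adjusted p = 0.0397 and 0.0470), each losing the call in 7 of 8 fits, all but those without female CRE- replicate 1 for Mup17 and without female LKO replicate 2 for Nudt7, with values of -7.92 to -6.02 and -1.90 to -1.49. Mup17 was at its lowest without female LKO replicate 3. Of 22 female-biased genes 0 were called in males by edgeR, with 9 at an unadjusted p under 0.05 and a median of 0.86, which turned to -0.22 without male LKO replicate 1, with 3 at an unadjusted p under 0.05, and was 1.55 without male CRE- replicate 2. In females 5 of 22 were lower by edgeR, where 4.24% of all genes tested were called. At an unadjusted p under 0.05 there were 7 of 22, against 21.4% of all genes. The median was -1.13, beside 0.04 over all genes tested, and all 22 were negative. Cyp3a41b (-4.10, edgeR adjusted p = 0.00274) and Cyp3a44 (-2.84, edgeR adjusted p = 0.00697) fell, and did so with any single female library left out. The other called genes were Cyp3a16 (-1.79), Cyp3a41a (-2.73) and A1bg (-4.75), whose calls were lost in 5, 4 and 6 of 8 fits. These were the fits without any one female CRE- library (all but replicate 1 for A1bg), without female LKO replicate 1 (Cyp3a16 and A1bg) and without female LKO replicates 3 or 4 (A1bg), with highest adjusted p of 0.0830, 0.0868 and 0.0834.

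Of 12 genes for growth hormone, androgen and oestrogen receptors and their signalling, the oestrogen receptor Esr1 fell in males (-1.33, SE 0.26, edgeR adjusted p = 0.0360). In females Igfals (-1.42, edgeR adjusted p = 0.00939), Esr1 (-1.32, edgeR adjusted p = 0.0173), the prolactin receptor Prlr (-1.17, edgeR adjusted p = 0.0176) and the growth hormone receptor Ghr (-1.25, edgeR adjusted p = 0.0184) fell. These were 1 of 12 genes called in males and 4 of 12 in females, beside 0.454% and 4.24% of all genes tested. At an unadjusted p under 0.05 there were 4 and 6 of 12, against 9.53% and 21.4% of all genes. The median was -0.19 in males and -0.35 in females, beside -0.01 and 0.04 over all genes tested. The male Esr1 call held only without male CRE- replicate 4 or male LKO replicate 1, among 8 fits with values of -1.50 to -1.12. In females Igfals was called in all 8 fits, Esr1 in all but the one without female CRE- replicate 2, Prlr in all but those without female CRE- replicates 2 or 4, and Ghr in all but those without female CRE- replicates 2, 3 or 4, with adjusted p up to 0.0627, 0.0640 and 0.0666.

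Markers of other cells moved with genotype in females beside these results. All 13 macrophage markers were positive in females, with a median of 1.4, and 11 had an unadjusted p under 0.05, against 21.4% of all genes. By edgeR 2 were called, Trem2 (2.7, edgeR adjusted p = 0.0249) and Adgre1 (2.15, edgeR adjusted p = 0.0452), beside 4.24% of all genes tested. Without female CRE- replicates 2, 3 or 4 or female LKO replicate 1 neither was called, and Adgre1 was not called without female CRE- replicate 1 or female LKO replicate 3 either, with values down to 2.34 and 1.21, both without female LKO replicate 1. Summed, the macrophage markers were at 1010.1, 715, 792 and 1569 CPM in female CRE- and at 3883, 1295, 2907 and 2011 CPM in female LKO libraries, and at 1178, 564, 303 and 1762 CPM in male CRE- and 1629, 820.5, 870.5 and 805 CPM in male LKO libraries. Lyz2 had the highest CPM of these markers in 7 of 16 libraries and Clec4f in the other 9, and no marker was at 0 in any library. In males 0 of 13 were called and 0 had an unadjusted p under 0.05, with a median of 0.15 (-0.30 with male LKO replicate 1 left out, 0.67 with male CRE- replicate 4 left out).

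Of 8 neutrophil markers 7 were tested. In males all 7 were negative (median -1.98, and -0.85 without male CRE- replicate 4). There 0 were called by edgeR and 5 had an unadjusted p under 0.05, against 9.53% of all genes. In females all 7 were positive (median 3.17, and 1.68 without female LKO replicate 4), and all 7 had an unadjusted p under 0.05, against 21.4% of all genes. Retnlg (2.86, edgeR adjusted p = 0.0331) and Mpo (5.23, edgeR adjusted p = 0.0332) were called in females, beside 4.24% of all genes tested. Neither call held without female CRE- replicates 2, 3 or 4 or female LKO replicates 1 or 4, nor did that of Retnlg without female CRE- replicate 1, and the values reached down to 2.04 and 4.20, both without female LKO replicate 4. Summed, the markers were at 80.5, 20.7, 16.9 and 149 CPM in male CRE-, 27.1, 17.1, 13.6 and 13.1 CPM in male LKO, 37.7, 20.3, 16.7 and 17.2 CPM in female CRE- and 128, 43.9, 65.0 and 551 CPM in female LKO libraries. S100a9 had the highest CPM in 13 of 16 libraries and Csf3r in the other 3, and Ly6g was at 0 in all male LKO libraries, in male CRE- replicates 2 and 3 and in female CRE- replicates 1, 3 and 4.

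The hepatocyte markers, 11 of 12 in the table, leaned down in females, 10 of 11 being negative with a median of -0.47. Summed, they were at 128180.0, 119770.0, 125640.0 and 140930.0 CPM in female CRE- and at 62972, 101210.0, 96319 and 78025 CPM in female LKO libraries. In males they were at 79440.0, 105430.0, 118640.0 and 105260.0 CPM in CRE- and at 70612, 81513, 100650.0 and 83355 CPM in LKO libraries, with a median log2 fold change of -0.15. By edgeR 0 were called in either sex, with 3 of 11 in each at an unadjusted p under 0.05, against 9.53% of all genes in males and 21.4% in females. Cyp4a31 was higher in every female LKO mouse while these hepatocyte sums were lower in every one of them. The part of these macrophage, neutrophil and hepatocyte markers in the Cyp4a results was not tested.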

How the data were processed

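Per the labels and the file header, the authors aligned paired reads of poly-A RNA to GRCm39 with STAR 2.7.1a and deposited a table of counts of reads on each gene from featureCounts (Subread 2.0.6), by strand and without normalization. The 41079 genes were filtered with filterByExpr of edgeR 4.0.16 (minimum count 10), scaled by TMM and fitted together as 4 groups in R 4.3.3, with edgeR's quasi-likelihood test and Benjamini-Hochberg adjustment over 16742 genes at 0.05. Coding sequences, their windows and the stretches shown came from the GENCODE annotation and the genome of GRCm39, with the longest coding transcript of each gene. Gene positions came from the RefSeq coordinates deposited with the counts. The alternatives were DESeq2 1.42.0, limma 3.58.1 (voom with sample quality weights), the 2 groups fitted alone, other scalings and filters, a replicate block, near-identical copies summed, and each library left out in turn. The genes named are the 6 Cyp4a genes, Gcgr, the called genes of 15 lists (at most 5 per comparison, by p), the 5 genes most like each member, and the genes beside the cluster. The members and lists were chosen with earlier results of these data known. The fits were tested on simulated counts. Depth was 33268424 to 56488920 counts per library, of which the genes tested held at least 99.87%. Floors and intervals of counts cover counting error only, and treat each read as independent although reads were paired.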

Additional observations from a re-analysis of the deposited data

Results flagged for a closer look

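In female CRE- replicate 4, Cyp4a12b was at 0.160 CPM (6 reads), while the other 3 female controls had 0 reads. With the others at 0, any value above 0 takes up the whole range of the group, so this gap does not show the library to be unusual. Gcgr was at 127 CPM in male CRE- replicate 3, far below the other 3 male controls, which lay between 189.6 and 193 CPM. This gap to the nearest library exceeded Dixon's 95% value, as a share of the range of its group of 4. Such gaps were looked for in 28 groups, and chance alone gives about 1 in 20.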

How the results depend on the processing

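Over other tools, scalings and filters, 247 results kept their direction and their side of the threshold, 6 turned sign, 6 newly passed and 5 no longer passed; over single libraries left out, 360 kept both, 20 turned, 4 newly passed and 8 no longer passed. Cyp4a31 stayed past the threshold in 8 of 8 other settings in each sex (log2 fold change 2.17 to 2.38 in males and 2.22 to 2.30 in females). DESeq2 called 339 genes in males, 1816 in females, 1034 in the mean over sexes, 371 for the sex difference and 509 between controls, and limma-voom called 148, 1976, 857, 29 and 329. With the 2 groups fitted alone, 119 were called in females and 249 between controls. No filter gave 12 for the sex difference, and at least 10 counts in every library gave 78 between controls. With 1 library left out, counts were 26 to 49 in males, 87 to 1310 (lowest without female CRE- replicate 2, highest without female LKO replicate 2) in females, 299 to 598 in the mean, 0 to 14 for the sex difference and 68 to 149 between controls. None of the effects that turned sign was past the threshold, as reported or after the turn. With limma-voom, the sex difference was -0.13 for Cyp4a31 and 0.15 for Cyp4a32; for Cyp4a32 it was 0.0206 with upper-quartile scaling and 0.00566 with at least 10 counts in every library. Leaving out 1 library gave log2 values of -0.10 to 0.61 for Cyp4a12a and -0.42 to 0.22 for Cyp4a12b in males, -0.78 to 0.10 for Cyp4a10 and -0.000733 to 0.82 for Cyp4a14 in females, -0.22 to 0.30 for Cyp4a31 and -0.47 to 0.25 for Cyp4a32 in the sex difference, and -0.0414 to 0.17 for Gcgr between controls. The cause was not tested. In females, the 2 groups fitted alone ended the calls of Fgf21, Fabp2, Cyb5b, Cyb5r3, Cyp3a16, Cyp3a41a, Cyp3a44, A1bg, Ghr, Adgre1, Retnlg, Mpo and Cdh5, limma-voom those of Mup17 and Mpo, and upper-quartile scaling those of Nudt7, Adgre1 and Cyb5r3; Cyb5r3 was also lost with RLE scaling, no filter and at least 10 counts in every library. Whether replicate numbers mark pairs is not stated, and not every same-numbered pair deviated together, so they were not taken as pairs. Of 24 such pairs 11 had a correlation over 0.1 (-0.25 to 0.332, median 0.0925, against -0.0204 for other pairs), and 24 of 48 best matches, each among 4 libraries, were to the same number, a hint from the data and not from the design. Between CRE- and LKO libraries of replicates 1 to 4 it was 0.17, 0.17, 0.144 and -0.013 in males. In females it was 0.173, 0.105, 0.117 and 0.0281. With the replicate block 1244 genes were called in females (710 without it), the mean over sexes of Cyp4a14 passed (1.23, adjusted p = 0.0357), Cyp4a12a in males was -0.37 and the sex difference of Cyp4a31 was -0.0164. Requiring 10 counts in every library removed Cyp4a12a and Cyp4a12b, which had few reads in females.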

Other observations

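The remaining cell markers gave few calls in the quasi-likelihood test of edgeR (adjusted by Benjamini-Hochberg). Of 12 markers of T, NK and B cells 0 were called in males or females (0 and 1 at an unadjusted p under 0.05), with medians of -0.02 and 0.45. Of 8 endothelial markers Cdh5 rose in females (0.79 on the log2 scale, adjusted p = 0.0250), was not called without female CRE- replicates 2, 3 or 4 or female LKO replicate 1 (0.71 to 0.92 over 8 fits), and the medians were 0.30 in males and 0.15 in females. At an unadjusted p under 0.05 there were 0 in males and 4 in females, against 21.4% of all genes in females. The female markers went both ways, with 4 positive and 4 negative. Of 9 stellate cell and fibroblast markers 0 were called in either sex (1 and 0 at an unadjusted p under 0.05), with medians of -0.57 and 0.16, and of 6 cholangiocyte markers 0 were called (0 and 0 unadjusted), with medians of 0.50 and 0.24. The 1 kidney marker tested, Lrp2, gave 1.15 in males and -0.66 in females and was not called.

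Between controls of each sex, several listed genes differed beside Cyp4a12a and Cyp4a12b. Cidec, a lipid droplet protein, was lower in females (1.89 against 46.4 CPM, -4.62 on the log2 scale, edgeR adjusted p = 0.000167), and Prlr was higher (399 against 122 CPM, 1.71, edgeR adjusted p = 0.00108). Of the male-biased list 7 of 18 were lower in females, among them Cyp2d9 (-5.24, edgeR adjusted p = 1.88e-05) and Cyp2u1 (-3.39, edgeR adjusted p = 0.00215), and of the female-biased list 14 of 22 were higher, among them Cyp3a16 (6.32, edgeR adjusted p = 2.81e-06). Of all genes tested 0.92% were called. Both lists hold genes known as sex-biased, so nothing is read from their counts between the sexes. The cholangiocyte marker Krt19 was higher (1.66, edgeR adjusted p = 0.0300) and lost its call in each of 8 fits without 1 control.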
